A study of Homo sapiens with 54 samples.

Results

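Cytosolic ribosomal protein mRNAs were followed in 2 human cancer cell lines, HCT116 (colon cancer) and HepG2 (liver cancer, given in the labels as stem cells of that cancer). The genes were taken by symbol: RPL or RPS followed by a number, with an optional A or X at the end, plus RPLP0, RPLP1, RPLP2 and RPSA. Pseudogenes, numbered copy rows and paralogues with other endings were left out. The rule found 77 of the 50037 genes in the table, 46 of the large and 31 of the small ribosomal subunit. The 54 libraries form 9 groups of 3 in each line. The control, NC, received an equal volume of medium and its labels give no time. The treated groups received IL-6 at 50 ng/mL, IL-10 at 50 ng/mL, TNF-a at 100 ng/mL or Torin1 at 1 uM, each for 3 h and for 6 h. IL-6, IL-10 and TNF-a are cytokines, and Torin1 inhibits the kinase mTOR. Each model is 1 established line, and nothing in the labels says whether the 3 libraries of a group came from separate cultures, so a p-value below sets a difference against library-to-library spread that may be technical only. The recovery samples that the series text mentions were not analysed here.

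Ribosomal proteins are assembled with ribosomal RNA into the 2 subunits of the ribosome, and their mRNAs are among the most abundant in dividing cells. Most of these mRNAs begin with a C followed by an unbroken run of pyrimidines, the 5′ terminal oligopyrimidine (TOP) tract. When mTOR is inhibited the protein LARP1 binds this end of the mRNA, translation of TOP mRNAs is repressed, and the mRNAs are held in a stable pool, so that the amount of mRNA and the amount of protein made from it need not move together.

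The start sites below show the feature shared by most of these genes. Each line gives the 20 bases before and the 20 bases from an annotated start of transcription (RefSeq, GRCh38.p14). It reads 5′ to 3′ on the gene's own strand. Capitals mark the pyrimidine run where the start is a C followed by at least 4 bases that are C or T. RPL11 has 2 listed starts and RPS27A has 3, and for each of them 1 start with the run is shown. The first group holds the stalk proteins RPLP0, RPLP1 and RPLP2, the 5S-binding protein RPL11, and RPL13A, RPL12, RPS6, RPSA, RPS27A and RPL41. RPS4X, RPL3, RPL10A, RPS26 and RPS15 have no such start in this annotation and are shown for contrast.
RPL13A (chr19:49487588-49487627, plus strand): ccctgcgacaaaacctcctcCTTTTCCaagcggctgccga
RPL12 (chr9:127451387-127451426, minus strand): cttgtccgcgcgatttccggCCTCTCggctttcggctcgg
RPLP0 (chr12:120201092-120201131, minus strand): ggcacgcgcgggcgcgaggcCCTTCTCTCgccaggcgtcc
RPLP1 (chr15:69452798-69452837, plus strand): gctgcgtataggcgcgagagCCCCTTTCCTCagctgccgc
RPLP2 (chr11:809947-809986, plus strand): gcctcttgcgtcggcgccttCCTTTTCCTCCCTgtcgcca
RPL11 (chr1:23691786-23691825, plus strand): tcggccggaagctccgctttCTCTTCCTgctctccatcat
RPS6 (chr9:19380217-19380256, minus strand): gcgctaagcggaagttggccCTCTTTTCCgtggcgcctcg
RPSA (chr3:39406700-39406739, plus strand): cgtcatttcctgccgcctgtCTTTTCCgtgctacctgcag
RPS27A (chr2:55232668-55232707, plus strand): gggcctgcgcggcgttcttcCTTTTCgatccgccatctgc
RPL41 (chr12:56116613-56116652, plus strand): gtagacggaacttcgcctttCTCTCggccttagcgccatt
RPS4X (chrX:72277229-72277268, minus strand): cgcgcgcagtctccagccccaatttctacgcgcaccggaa
RPL3 (chr22:39319604-39319643, minus strand): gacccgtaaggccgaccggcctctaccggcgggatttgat
RPL10A (chr6:35468381-35468420, plus strand): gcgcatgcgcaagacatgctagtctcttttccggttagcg
RPS26 (chr12:56041898-56041937, plus strand): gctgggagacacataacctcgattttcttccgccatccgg
RPS15 (chr19:1438376-1438415, plus strand): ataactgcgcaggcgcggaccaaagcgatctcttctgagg
A start table could be matched for 62 of the 77 genes, and 46 of these (74.19%) had the run at one of their listed starts. Of the 27305 genes read from the start table, expressed here or not, 5.142% had it. Of the mitochondrial ribosomal proteins, which are coded by separate nuclear genes, 6 of 69 (8.696%) had it. No match says only that these letters are not at this annotated start.

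The libraries held between 38536441 and 93700346 reads on genes, as recovered from the deposited values. HepG2 carried its liver markers: 8 of 9 hepatocyte genes reached 1 FPKM (fragments scaled to gene length and library size) without treatment and summed to 12230 to 14800 FPKM over its libraries, against 2 of 9 and 2.241 to 8.693 FPKM in HCT116. Colon epithelium genes separated the lines less: 5 of 8 reached 1 FPKM in HCT116 (summed 1287 to 1727 FPKM) and 4 of 8 in HepG2 (780.5 to 1141 FPKM). None of the 5 blood cell and 5 fibroblast markers did so in either line. In bulk libraries, fewer cells of a type and less RNA per cell cannot be told apart. 1 library stood apart for the genes described here: HepG2 IL-6 3 h replicate 3, with a summed ribosomal protein level of 33890 FPKM against 43510 and 41300 FPKM in the other two, and results that rest on it are given with and without it.

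Untreated HCT116 libraries spent 6.06% to 6.07% of their reads on these genes, and untreated HepG2 libraries 4.67% to 4.84%. The order of the genes was much the same in both. Of the 77 genes, 74 reached 1 FPKM in each line. 10 genes cannot be read as levels, because the table may split their reads between rows. RPL7A, RPS2, RPS3A, RPS9, RPS18 and RPS25 are among those with numbered copy rows, and RPL17, RPL36A and RPS10 share exons with a readthrough gene. All 10 sat below every other member. Over the other 67 genes the median level was 666.3 FPKM in HCT116 and 593.4 FPKM in HepG2, and Spearman's rho between the lines was 0.91 (n = 67 genes, a description, since the lines share gene models and library preparation).

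**Figure D1:**
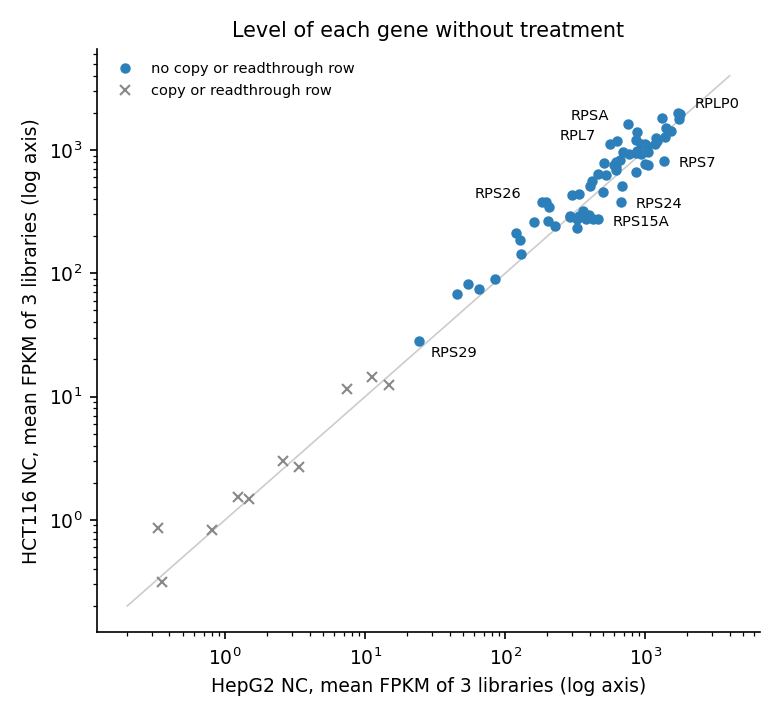
Mean level of each of the 77 genes in untreated HepG2 (x axis, FPKM, log scale) and untreated HCT116 (y axis, FPKM, log scale), 3 libraries each; circles are genes without a copy or readthrough row, crosses the 10 genes with one, and the line marks equal levels. The circles follow the line from RPS29 at 24.05 and 28.41 FPKM to RPLP0 at 1709 and 2011 FPKM, with RPSA, RPL7 and RPS26 above it and RPS7, RPS24 and RPS15A below it.

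The highest level in HCT116 belonged to RPLP0, the base of the stalk that recruits elongation factors, at 2011 ± 67.95 FPKM (SD, n = 3). RPL41, a very short large-subunit protein, followed at 1943 ± 81.65 FPKM and RPL12, which anchors the stalk, at 1816 ± 22.67 FPKM. The first 2 of these differed by less than their combined spread. In HepG2 RPL41 had 1778 ± 61.16 FPKM and RPLP0 1709 ± 26.82 FPKM, which also differed by less than their combined spread. The lowest genes without a copy or readthrough row in HCT116 were RPS29 (28.41 ± 4.572 FPKM), RPL28 (68.33 ± 1.362 FPKM) and RPL37 (74.04 ± 3.182 FPKM). In HepG2 they were RPS29 (24.05 ± 4.62 FPKM), RPL28 (45.07 ± 0.7061 FPKM) and RPS28 (53.92 ± 4.912 FPKM). FPKM divides by the length of the gene model, and the lengths implied by the deposited values were 7472 bases for RPS29, 5585 for RPL28 and 7573 for RPL37, against 676 for RPL41 and 634 for RPL12. Across the 67 genes the level fell off with this length (Spearman's rho -0.67 in HCT116 and -0.62 in HepG2, n = 67 genes, as a description). Levels are therefore compared below between libraries for 1 gene, where the length is the same.

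Between the untreated lines, individual ribosomal protein genes differed in both directions, by up to 2.146-fold. With limma on log2(FPKM + 1) and Benjamini-Hochberg adjustment over all genes, 39 of 76 genes tested were higher in HCT116 and 16 lower (median 0.16), against 42.2% higher and 43.3% lower of all 12992 genes. RPSA, the laminin-receptor protein of the small subunit, had 1598, 1651 and 1635 FPKM in HCT116 and 770.3, 755.8 and 747.7 FPKM in HepG2. It was 2.146-fold higher in HCT116 (log2 difference 1.102 ± 0.068 SE, limma adjusted p = 2.87e-18). RPS26, which lies at the mRNA exit channel, had 368.7, 386.7 and 373.3 FPKM in HCT116 and 184.4, 186.5 and 174.4 FPKM in HepG2, a 2.064-fold difference (limma adjusted p = 3.84e-22). RPL7 of the large subunit was 2.002-fold higher. RPS24, RPS15A and RPS7, all of the small subunit, lay the other way, with log2 differences of -0.82, -0.75 and -0.74, and their libraries did not overlap between the lines.

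In HCT116, the summed level of the 77 genes was higher in every treated library than in any untreated one. The untreated libraries held 48430, 48970 and 48660 FPKM, and the 24 treated libraries lay between 50610 and 58520 FPKM. The mean sum under Torin1 was 13.86% above the controls at 3 h and 17.23% at 6 h. IL-6 gave 11.93% and 9.729%, IL-10 14.42% and 11.24%, and TNF-a 13.96% and 6.552%, at 3 h and 6 h. As a share of each library's reads, the rises in HCT116 were smaller: 9.725% and 15.16% for Torin1, 8.352% and 5.549% for IL-6, 10.27% and 7.637% for IL-10, and 8.462% and 2.088% for TNF-a. In HepG2 the sums of the untreated libraries were 44670, 43420 and 43380 FPKM. The mean was 9.972% and 3.841% higher with IL-10 at 3 h and 6 h. It differed from the controls by -9.713% and 2.434% with IL-6, 2.518% and -0.9508% with TNF-a, and -1.993% and -3.59% with Torin1. As a share of reads, the HepG2 changes were 8.668% and 6.342% for IL-10 and -10.15% and 1.762% for IL-6. They were -0.2114% and -0.9866% for TNF-a, and -3.453% and -4.651% for Torin1. At 6 h all 3 Torin1 libraries (41740, 42960 and 42050 FPKM) lay below all untreated ones. The 8 treated groups of a line share its 3 control libraries, so a control that stands low or high moves all of them together.

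**Figure D2:**
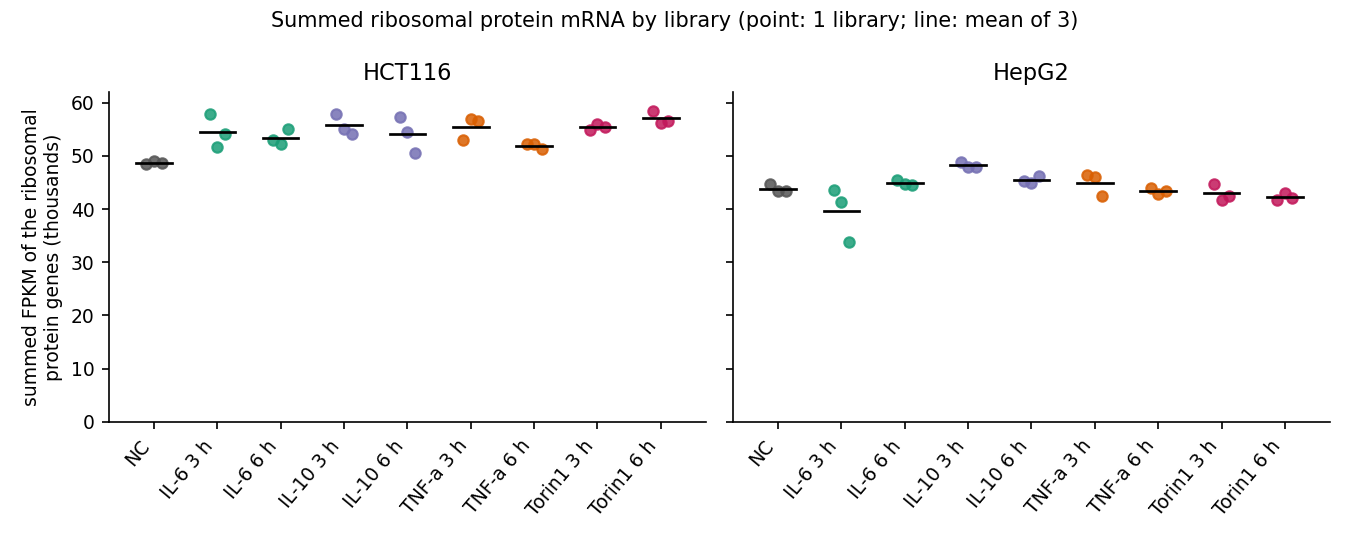
Summed FPKM of the 77 ribosomal protein genes (y axis, FPKM divided by 1000) in each of the 54 libraries, by group (x axis), HCT116 left and HepG2 right; a point is 1 library and a line the mean of 3. The 3 untreated HCT116 libraries, at 48430 to 48970 FPKM, are the lowest of their line, and the lowest point of HepG2 is IL-6 3 h replicate 3 at 33890 FPKM.

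Torin1 in HCT116 was the treatment with the largest number of ribosomal protein genes called. At 3 h, 54 of 76 genes tested rose and 0 fell (median log2 change 0.17), against 25.1% higher and 28.6% lower of all 11395 genes. At 6 h, 62 rose and 0 fell (median 0.23, or 16.96%), against 25.8% and 31.5% of all genes. The same 52 genes rose at both hours. In 64 of the 77 genes all 3 Torin1 6 h libraries lay above all 3 controls and in 0 below, as they did in 28.6% and 34.2% of all genes tested. Without the 10 genes that have a copy or readthrough row, 60 of 67 rose. By subunit, 40 of 46 large-subunit and 22 of 30 small-subunit genes rose at 6 h, with a median of 0.23 in each.

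**Figure D3:**
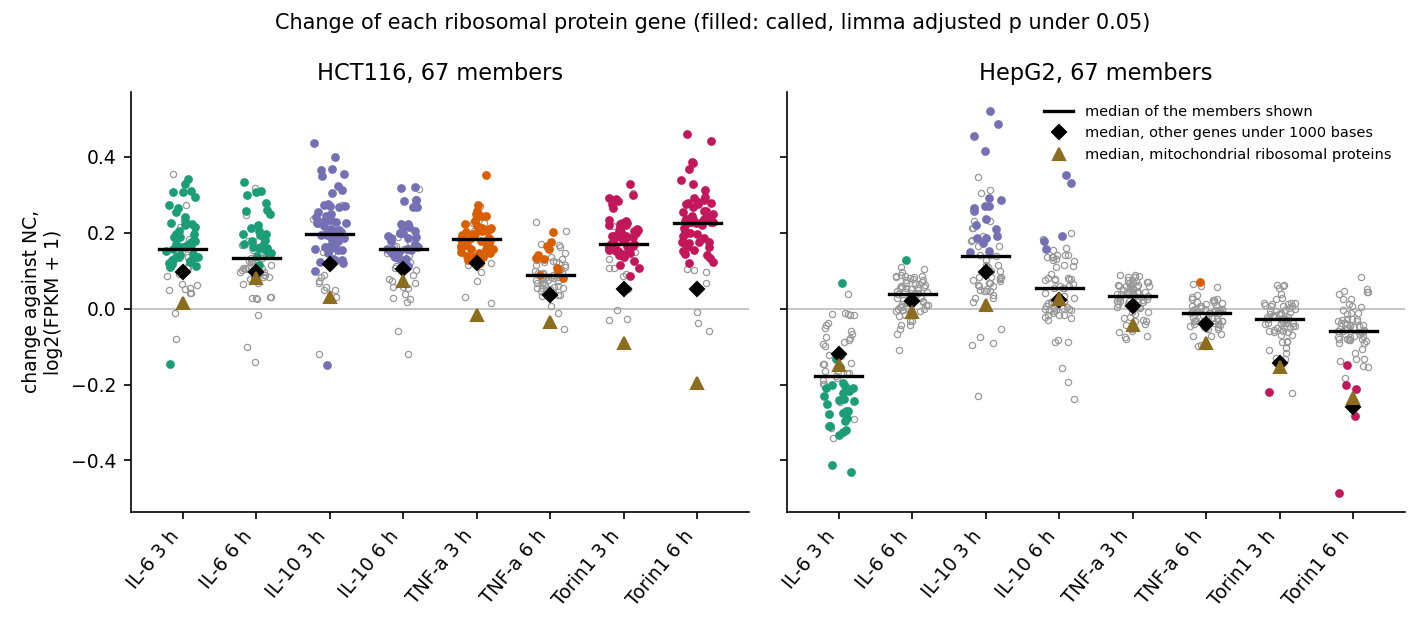
Change against NC on the log2(FPKM + 1) scale (y axis) of the 67 ribosomal protein genes without a copy or readthrough row, for each treatment and hour (x axis), HCT116 left and HepG2 right; filled points passed limma adjusted p under 0.05, bars are medians of the points, diamonds the median of other genes with models under 1000 bases and triangles that of mitochondrial ribosomal proteins. The HCT116 medians lie between 0.09 and 0.23 in all 8 groups, above the diamonds in each, and the triangles are lowest under Torin1 (-0.20 at 6 h).

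RPL13A had the largest called rise of the large-subunit genes under Torin1. RPL13A, a protein also known for a role outside the ribosome in repressing translation of inflammatory mRNAs, had 1468, 1401 and 1426 FPKM untreated, 1786, 1838 and 1768 FPKM at 3 h and 2005, 1920 and 1910 FPKM at 6 h. The 3 groups did not overlap, and the 6 h libraries were the highest of all HCT116 libraries. The change at 6 h was 1.358-fold (log2 0.44 ± 0.04 SE, limma adjusted p = 9.86e-10), and 6 h exceeded 3 h by 0.11 (limma adjusted p = 0.0171). RPL3, which lies near the peptidyl transferase centre, went from 1486, 1559 and 1471 FPKM to 2006, 1962 and 1926 FPKM at 6 h (log2 0.38 ± 0.03, limma adjusted p = 5.18e-09). RPL10A, part of the L1 stalk at the tRNA exit, went from 1138, 1022 and 1052 FPKM to 1427, 1372 and 1395 FPKM. RPL3 and RPL10A are 2 of the genes printed above without a marked run at the annotated start. RPL3 starts with a C in a run of 4 pyrimidines, just short of the marked length, and RPL10A does not start with a C. In RPL10A a longer run, tctcttttcc, begins just after the annotated start.

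Of the ribosomal stalk, RPLP0 had 2069, 2026 and 1936 FPKM untreated and 2483, 2447 and 2382 FPKM after 6 h of Torin1 (log2 0.28 ± 0.04, limma adjusted p = 2.25e-06). RPL12 went from 1840, 1813 and 1795 FPKM to 2412, 2279 and 2201 FPKM. The acidic proteins RPLP1 and RPLP2, which bind RPLP0 as dimers, also rose, and the 4 changes lay between 0.28 and 0.34. RPL5 and RPL11, which carry 5S RNA into the large subunit and can bind MDM2 when assembly fails, also rose. RPL11 went from 752.6, 786.7 and 762.3 FPKM to 946.1, 871.6 and 874 FPKM (log2 0.23), and RPL5 from 923.2, 964.3 and 949.1 FPKM to 1110, 1065 and 1055 FPKM (log2 0.19).

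Of the small subunit, RPS27 went from 404.3, 479 and 478.3 FPKM to 605.3, 582.2 and 564.8 FPKM at 6 h (log2 0.37 ± 0.08, limma adjusted p = 0.000523). RPS29, a small zinc-binding protein, went from 23.57, 28.99 and 32.66 FPKM to 39.05, 39.16 and 39.01 FPKM, a change of 0.46 ± 0.15 (limma adjusted p = 0.0117). RPSA went from 1598, 1651 and 1635 FPKM to 1957, 1874 and 1882 FPKM (log2 0.23). In all 3 of these genes the treated libraries lay above the controls. RPS6, the protein phosphorylated by the S6 kinases downstream of mTOR, rose by 0.12 (964.5, 952.1 and 977.3 FPKM against 1052, 1045 and 1053 FPKM). RPS27A, made as a fusion to ubiquitin, rose by 0.14, RPS4X by 0.17 and RPL41 by 0.15. RPS26 (370.7, 354 and 374.4 FPKM at 6 h), RPS15 (530.7, 537.5 and 586.2 FPKM) and RPL24 (261.7, 235 and 250.6 FPKM) overlapped their controls and were not called. The largest fitted change at 6 h, 1.35 for RPS2, rested on 1 library (14.45, 11.42 and 170.3 FPKM against 12.46, 11.04 and 11.26 FPKM) of a gene with a copy row.

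**Figure D4:**
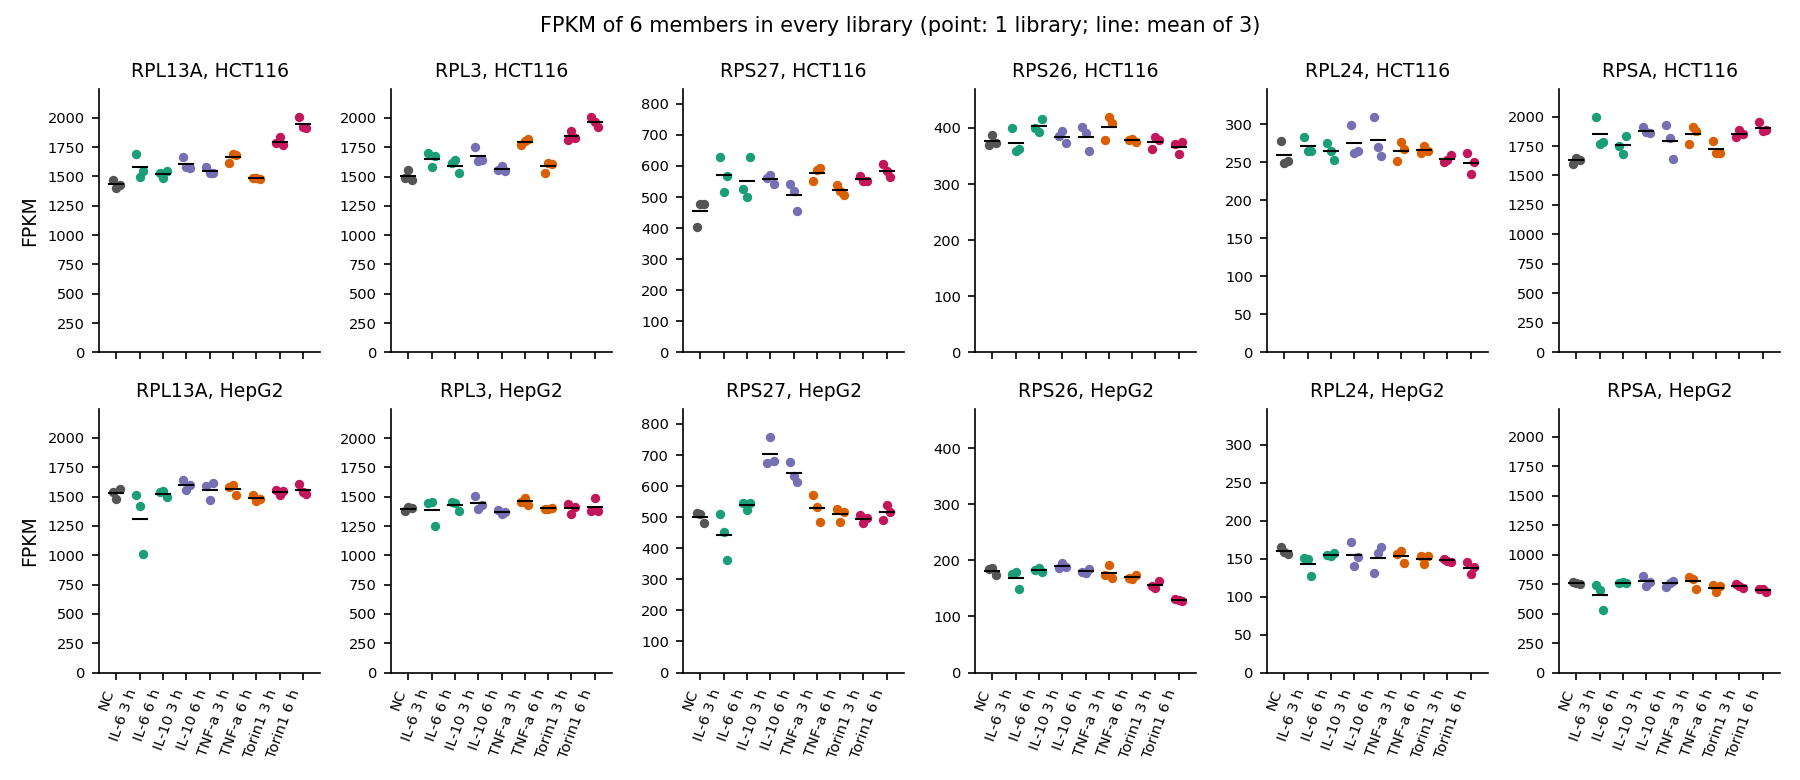
FPKM (y axis, from 0) of RPL13A, RPL3, RPS27, RPS26, RPL24 and RPSA in every library, by group (x axis), HCT116 in the upper and HepG2 in the lower row; a point is 1 library and a line the mean of 3. RPL13A and RPL3 reach 1910 to 2006 FPKM under Torin1 6 h in HCT116 and stay near their control level in HepG2, where RPS26 falls to 127.9 to 131.5 FPKM.

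The 3 cytokines were also followed by higher ribosomal protein mRNA in HCT116, with medians from 0.09 to 0.19. Among 76 genes, IL-6 raised 44 and lowered 1 at 3 h (median 0.15; all genes 15.9% higher and 15.6% lower) and raised 27 and lowered 0 at 6 h (median 0.13; 11.1% and 5.45%). IL-10 raised 53 and lowered 1 at 3 h (median 0.19; 21.8% and 16.9%) and raised 35 and lowered 0 at 6 h (median 0.15; 14% and 6.49%). TNF-a raised 52 and lowered 0 at 3 h (median 0.18; 19.2% and 22.4%) and raised 11 and lowered 0 at 6 h (median 0.09; 16.7% and 17.1%). The share called higher with TNF-a at 6 h (11 of 76) did not exceed the 16.7% of all genes. The 6 h counts changed when 1 library was left out, which also makes the fit smaller. For IL-6 and TNF-a at 6 h, leaving out any 1 library of the groups compared lowered the count. The shares of all genes in these smaller fits are not reported here. For IL-6 the count was 20 without replicate 1 at 3 h, and at 6 h it was 10 without replicate 3, 17 without replicate 1, and 15 to 17 without any 1 of the controls. For IL-10 at 6 h it was 12 without replicate 1, 20 without replicate 2, 23 without NC replicate 1 and 22 without NC replicate 3. For TNF-a at 6 h it was 3, 4 and 6 without replicates 1, 2 and 3, and 6 without NC replicate 1 or 3. Other short mRNAs were higher in the same libraries: the median of 244 other genes with models under 1000 bases, a class chosen after seeing the data, was 0.10 to 0.12 under IL-6, IL-10 and TNF-a at 3 h, and 0.10, 0.10 and 0.04 at 6 h. Under Torin1 that class lay at 0.05 at both hours. Over the 67 ribosomal protein genes without a copy or readthrough row, Spearman's rho between change and model length was small. It lay between -0.1 and 0.1 in the HCT116 comparisons with NC (a description). The part of gene length in these results was not tested.

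RPL39, one of the shortest ribosomal proteins, at the peptide exit tunnel, had 1136, 1313 and 1333 FPKM untreated and 1841, 1699 and 1579 FPKM after 3 h of IL-10, with no overlap (log2 0.44 ± 0.08, limma adjusted p = 0.000289). RPL35A went from 418, 444.7 and 456.1 FPKM to 590.6, 559.8 and 551.8 FPKM in the same group (log2 0.37). RPS27 led under TNF-a at 3 h (551.2, 587.3 and 594.4 FPKM, log2 0.35) and RPL21 at 6 h (1323, 1312 and 1251 FPKM against 1085, 1192 and 1102 FPKM, log2 0.20). RPL38, a regulator of homeobox mRNA translation in the mouse embryo, was among the 3 leading genes with IL-6 at 6 h (log2 0.31), and RPL37A with IL-10 at 6 h (log2 0.29). The only falls in these 6 comparisons were RPS15 with IL-6 at 3 h (543.4, 483.3 and 478.9 FPKM against 601, 540.1 and 525.6 FPKM, log2 -0.15, limma adjusted p = 0.0355) and RPL28 with IL-10 at 3 h (log2 -0.15). RPL10A, RPL12, RPL14, RPL21, RPL35A and RPS14 were called higher in all 8 HCT116 comparisons with NC, and 10 genes in none. All 8 comparisons use the same 3 controls.

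Set against IL-10 at the matching hour, which has a time label that NC lacks, most of the rise under Torin1 at 3 h was not seen, and that at 6 h was smaller. IL-10 is a treatment, so this compares 2 treatments. At 3 h, 4 of 76 genes were higher with Torin1 and 4 lower (median -0.03), against 17.6% and 26.7% of all genes. At 6 h, 23 were higher and 4 lower (median 0.06), against 23.6% and 33.7%, so that the share of these genes called higher (23 of 76) was near the background. RPL13A stood above IL-10 at both hours, with 1577, 1532 and 1532 FPKM in the IL-10 6 h libraries against 2005, 1920 and 1910 FPKM (log2 0.33, limma adjusted p = 6.25e-08). RPL28 (81.26, 80.02 and 82.42 FPKM against 63.77, 62.56 and 62.07 FPKM, log2 0.37) and RPL3 (log2 0.33) also did. RPL17, RPL24 and RPS24 were lower than with IL-10 at 6 h, by 0.17 or less in size. The 6 h count was 13 without IL-10 6 h replicate 3 and 15 without Torin1 6 h replicate 1, and the 3 h count of lower genes was 0 without IL-10 3 h replicate 1, 2 without Torin1 3 h replicate 1 and 1 without Torin1 3 h replicate 2. With IL-10 as the reference, 0 of 76 genes differed for IL-6 at either hour by limma, and at an unadjusted threshold 0 were higher and 1 lower at each hour. Few of all genes differed in these 2 comparisons (0.167% higher and 0.0702% lower at 3 h, 0.0965% and 0.0176% at 6 h). For TNF-a, 4 genes were higher and 2 lower than with IL-10 at 3 h (14.3% and 22.2% of all genes), and 0 higher and 9 lower at 6 h (17.7% and 24.6%; 2 and 14 at an unadjusted threshold). Torin1 at 6 h exceeded Torin1 at 3 h for 3 genes, RPL28, RPL13A and RPL3, and was lower for 0, against 14.1% and 16.3% of all genes. Without Torin1 3 h replicate 3 the count was 1.

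In HepG2, Torin1 did not raise any ribosomal protein gene past the threshold. At 3 h, 0 of 75 genes tested rose and 2 fell (median -0.03), against 19.4% higher and 26.1% lower of all 11280 genes. At 6 h, 0 rose and 7 fell (median -0.06, or -3.982%), against 26.1% and 33.8%. At an unadjusted threshold 0 rose at either hour and 3 and 8 fell, and voom on recovered reads called 0 higher and 1 and 7 lower. Without NC replicate 1 or Torin1 6 h replicate 2 the 6 h count was 3, and without NC replicate 2, NC replicate 3 or any 1 of the treated libraries the 3 h count was 1. RPS26 fell most: its libraries held 184.4, 186.5 and 174.4 FPKM untreated, 153.8, 151.5 and 163 FPKM at 3 h and 131.5, 129.4 and 127.9 FPKM at 6 h. The 3 groups did not overlap (6 h against NC 0.715-fold, log2 -0.49 ± 0.05 SE, limma adjusted p = 7.98e-08), and RPS26 was also the 1 gene lower at 6 h than at 3 h, against 19.3% of all genes (2 genes without Torin1 6 h replicate 2), while 0 were higher (17%). RPS15 (353.8, 328.4 and 342.3 FPKM against 430.9, 416.9 and 398.9 FPKM), RPS19 (245.6, 238.2 and 252.7 FPKM against 311.5, 280.8 and 281.1 FPKM) and RPS27A (745.7, 723 and 767.2 FPKM against 933, 828.3 and 811.3 FPKM) fell at 6 h as well. RPS19 is the gene most often mutated in Diamond-Blackfan anaemia. RPL24, RPL6 and RPL17 were the large-subunit genes that fell, RPL17 being one whose reads a readthrough row shares.

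Most members of HepG2 stayed close to their control level under Torin1. RPL13A had 1541, 1483 and 1565 FPKM untreated and 1608, 1540 and 1518 FPKM at 6 h (log2 0.02 ± 0.09, limma adjusted p = 0.831). RPL3 had 1379, 1413 and 1403 FPKM against 1375, 1487 and 1374 FPKM. RPLP0 had 1686, 1702 and 1739 FPKM against 1619, 1684 and 1516 FPKM, and RPL11 984.3, 1009 and 1003 FPKM against 921, 987.1 and 935.1 FPKM. The Torin1 libraries of RPL13A and RPL11 overlapped the untreated range, those of RPL3 lay on both sides of it, and those of RPLP0 lay below it without a call. In 21 of 77 genes all 3 Torin1 6 h libraries lay below all 3 controls, and in 2 above, against 38.1% and 29.4% of all genes tested. Other short mRNAs moved further: the median of 229 other genes with models under 1000 bases was -0.14 at 3 h and -0.26 at 6 h. That of 72 mitochondrial ribosomal proteins was -0.16 and -0.24. Over the 67 ribosomal protein genes without a copy or readthrough row, Spearman's rho between change and model length was 0.19 at 3 h and 0.35 at 6 h. This is a description, and the part of gene length was not tested. Against IL-10 of the same hour, Torin1 was lower for 38 of 75 genes at 3 h (24% of all genes) and 23 at 6 h (30.3%). It was higher for 0 at each hour (21.5% and 28.7%). The share called lower at 6 h (23 of 75) was near the background. Without IL-10 3 h replicate 2, Torin1 3 h replicate 2 or Torin1 3 h replicate 3 the 3 h count was 25, 21 and 23.

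The HepG2 cytokine responses differed among agents. IL-10 at 3 h raised 20 of 75 genes and lowered 0 (median 0.13; all genes 7.17% higher and 11.9% lower), and at 6 h 6 and 0 (median 0.05; 1.88% and 9.8%). RPS27 had 512.7, 510 and 481.8 FPKM untreated and 673, 756.8 and 681.5 FPKM after 3 h of IL-10 (log2 0.49 ± 0.08, limma adjusted p = 0.000349). RPL37 went from 66, 65.6 and 63.67 FPKM to 79.24, 96.99 and 93.62 FPKM, and RPS29 from 29.32, 22.12 and 20.71 FPKM to 31.27, 39.13 and 33.67 FPKM. In each of these 3 genes the IL-10 libraries lay above the controls. RPL7 rose with IL-10 by 0.27 at 3 h (670.3, 666.9 and 674.7 FPKM against 562.5, 552.2 and 554.9 FPKM), and it was the 1 gene that rose with IL-6 at 3 h and 6 h and with TNF-a at 6 h. The largest called rise at both IL-10 hours was that of RPS10 (0.61 and 0.39), a gene with a readthrough row at 2.936 to 4.108 FPKM untreated. The count for IL-10 at 3 h was 9 without NC replicate 2, 11 without NC replicate 3 and 11 without IL-10 3 h replicate 2. That at 6 h was 3 without NC replicate 1, NC replicate 3 or IL-10 6 h replicate 1.

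IL-6 at 3 h lowered 27 of 75 genes and raised 1 (median -0.18; all genes 19.5% lower and 14.5% higher), and this rested largely on 1 library. RPL9 had 446.1, 387.4 and 310.6 FPKM against 562.7, 488.8 and 478.9 FPKM, RPL37A 327.8, 294.2 and 236.8 FPKM against 412, 361.3 and 361.9 FPKM, and RPL13A 1511, 1417 and 1009 FPKM against 1541, 1483 and 1565 FPKM. The third library was the lowest in each. Its median over the members was -0.38 from the control mean and that of other short genes -0.31 in the same library. Without IL-6 3 h replicate 3 the count of lower genes was 7, without NC replicate 1 it was 11, and without IL-6 3 h replicate 1 it was 50. A fit to the IL-6 3 h and NC libraries alone called 0 lower. Against IL-10 at 3 h, 56 genes were lower with IL-6 and 0 higher (10.9% and 12% of all genes), and 43 were lower without replicate 3 and 11 in a fit to those libraries alone. Against IL-10, IL-6 at 6 h was higher for 1 gene and lower for 3 (14.4% and 9.28%), and TNF-a was higher for 0 and lower for 12 at 3 h (10% and 6.06%; 1 and 25 at an unadjusted threshold) and higher for 0 and lower for 10 at 6 h (18.9% and 15.9%; 0 and 12). Against NC at 6 h IL-6 raised 1 gene, or 2 without NC replicate 2, and lowered 0 (7.59% and 11.8% of all genes). TNF-a raised 0 and lowered 0 genes at 3 h (12.8% and 16.9%, and 1 gene higher without TNF-a 3 h replicate 1) by limma, with 2 higher and 0 lower at an unadjusted threshold and 2 higher with voom on recovered reads. At 6 h it raised 1 and lowered 0 (11.9% and 16.8%). RPL7, that 1 gene, was not called without NC replicate 2, NC replicate 3, TNF-a 6 h replicate 1 or TNF-a 6 h replicate 3.

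The response to Torin1, taken against NC, therefore differed between the lines. The difference was tested directly as the interaction of line and treatment over all 54 libraries. At 3 h the effect was higher in HCT116 for 30 of 75 genes and lower for 0 (median difference 0.20), against 20.4% higher and 19.5% lower of all 9683 genes. At 6 h it was higher for 61 and lower for 0 (median 0.29), against 26.4% and 23.7%. Over the 67 genes without a copy or readthrough row the difference was positive for all 67 at both hours and lay between 0.14 and 0.49 at 6 h. RPL13A differed by 0.32 ± 0.10 at 3 h (limma adjusted p = 0.00701) and 0.42 ± 0.10 at 6 h (limma adjusted p = 0.000386). RPS26 differed by 0.45 ± 0.07 at 6 h (limma adjusted p = 1.69e-06), from a fall in HepG2 with 370.7, 354 and 374.4 FPKM against a control range of 368.7 to 386.7 FPKM in HCT116. RPLP0 differed by 0.37 and RPL3 by 0.37 at 6 h. Without HepG2 Torin1 3 h replicate 2 the count at 3 h was 17, and without replicate 3 of that group it was 19. The counts at 6 h lay between 47 and 60 with each library left out in turn. Medians against NC were higher in HCT116 than in HepG2 for each cytokine and hour too, such as 0.18 and 0.04 with TNF-a at 3 h. Against IL-10 of the same hour, the Torin1 medians were -0.03 at 3 h and 0.06 at 6 h in HCT116. In HepG2 they were -0.165 and -0.125. The difference between the lines was not tested with that reference.

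**Figure D5:**
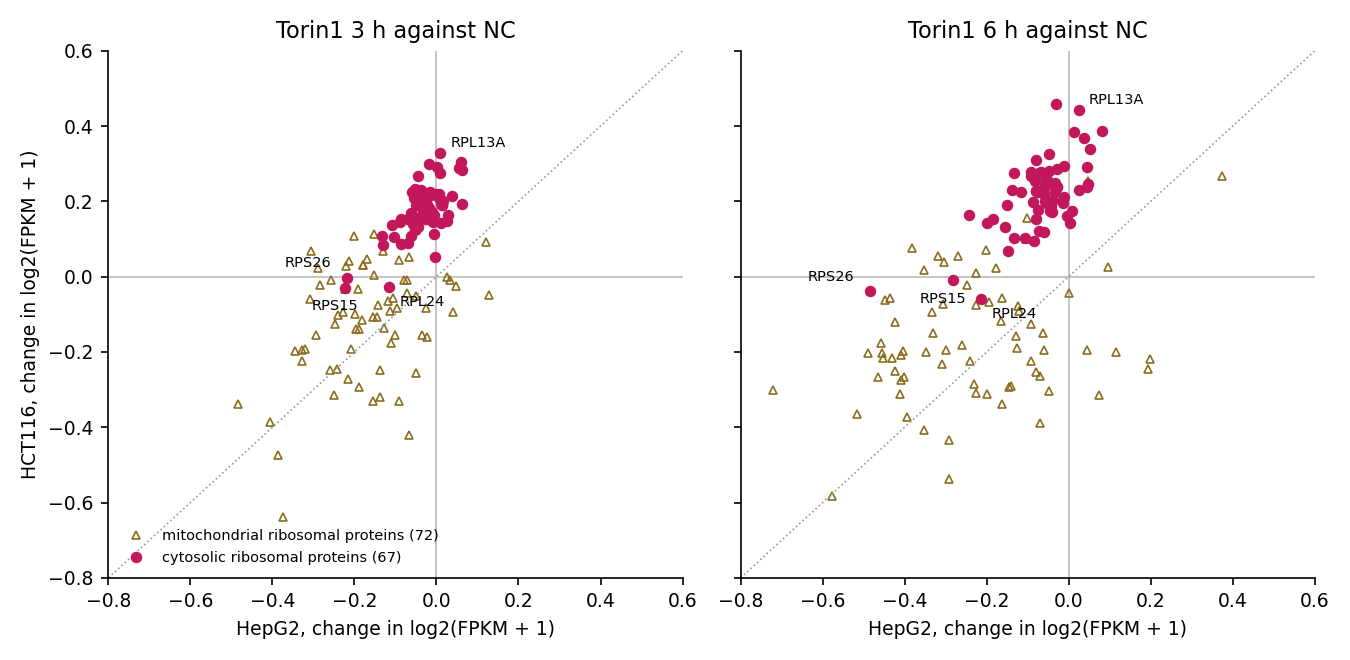
Change under Torin1 against NC on the log2(FPKM + 1) scale in HepG2 (x axis) and HCT116 (y axis) at 3 h (left) and 6 h (right); filled circles are the 67 ribosomal protein genes without a copy or readthrough row, open triangles 72 mitochondrial ribosomal proteins, and the dotted line marks equal change. All 67 circles lie above the dotted line at both hours, most of them near 0 in HepG2, with RPS26 farthest to the left at -0.49 at 6 h.

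Genes with and without the marked pyrimidine run changed over overlapping ranges under Torin1. At 6 h in HCT116 a larger share of those with the run was called (94.87% against 66.67%). At 3 h the shares were 82.05% and 66.67%, and the medians were 0.17 with the run and 0.189 without it. Shares also differed without Torin1, in either direction. At 3 h they were 76.92% and 60% with TNF-a, and 76.92% and 80% with IL-10. Among the genes without a copy or readthrough row that had a matched start, 37 of 39 with the run rose under Torin1 at 6 h in HCT116 (median 0.23, from -0.06 to 0.44) and 10 of 15 without it (median 0.18, from -0.04 to 0.46). Of all genes, 25.8% rose in that comparison. In HepG2 3 of 39 with the run fell (median -0.06) and 3 of 15 without it (median -0.05), RPS26 and RPS15 being in the second set. Both shares lay below the 33.8% of all genes that fell there. The effect at 6 h was called higher in HCT116 than in HepG2 for 35 of 39 and 11 of 15, against 26.4% of all genes. The second set also holds RPL3, whose run of 4 bases falls just short of the marked length. It holds RPL10A, RPS26 and RPS4X too, in which a pyrimidine run begins just after the annotated start. No test was made between the 2 sets.

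Other genes of the same pathway are given from lists. FAU, a ribosomal protein made as a fusion to a ubiquitin-like protein and outside the symbol rule, had 0.12 with Torin1 at 6 h in HCT116 and fell by 0.32 in HepG2. Of 23 other TOP genes tested, mostly elongation and initiation factors, 14 rose and 0 fell in HCT116 (median 0.16), and 8 rose and 1 fell in HepG2 (median 0.00). The shares of all genes in these 2 comparisons, 25.8% higher and 31.5% lower in HCT116 and 26.1% and 33.8% in HepG2, are the background for this and the other lists, and the HepG2 share of risen TOP genes was near it. EEF2, the translocation factor, rose in both lines (0.46 and 0.26), and EEF1A1, which delivers aminoacyl-tRNA, rose in HCT116 (0.33) and had -0.03 in HepG2. Of the host genes of small nucleolar RNAs listed as TOP, 7 rose and 3 fell of 11 in HCT116. In HepG2 4 rose and 3 fell of 10, and in both lines the shares that fell were near the background. The marked run was found in 4 of the 10 genes of this list with a matched start, against 15 of 16 other TOP genes. ZFAS1 (0.30 and 0.22), SNHG29 (0.30 and 0.18), SNHG16 (0.11 and 0.17) and EPB41L4A-AS1 (0.29 and 0.64) rose in both lines, and SNHG12 (-0.56 and -0.51) and SNHG1 (-0.27 and -0.26) fell in both. GAS5 (0.21), SNHG6 (0.25) and SNHG8 (0.24) rose in HCT116, where SNHG15 fell (-0.19) and SNHG5 had 0.12, and SNHG5 fell in HepG2 (-0.21).

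Genes of ribosome assembly were mostly lower under Torin1 at 6 h in HCT116, where the cytosolic ribosomal proteins were higher. Of 40 ribosome biogenesis factors, 31 fell and 1 rose in HCT116 (median -0.25; all genes 31.5% lower and 25.8% higher) and 22 fell and 4 rose in HepG2 (median -0.12; all genes 33.8% and 26.1%). URB2 (-0.72) and BRIX1 (-0.59), both of large-subunit assembly, led in HCT116, and GRWD1 (-0.47) and MRTO4 (-0.44) in HepG2. Of 72 mitochondrial ribosomal proteins, 49 fell and 3 rose in HCT116 (median -0.20) and 50 fell and 4 rose in HepG2 (median -0.24), led by MRPS6 (-0.58) and MRPL36 (-0.54) in the first and MRPL27 (-0.72) and MRPS6 (-0.58) in the second. Among 17 genes that regulate TOP mRNAs, 9 fell and 4 rose in HCT116, with LARP4 (-0.41) and MYC (0.36) the largest, and 10 fell and 3 rose in HepG2, with MYC (1.03) and EIF4EBP1 (-0.49) the largest. MYC drives transcription of ribosome genes, and EIF4EBP1 codes for a translational repressor controlled by mTOR. Of 5 tested paralogues with other endings, RPL7L1 fell in HCT116 (-0.16), where RPL22L1 had 0.07, RPL26L1 -0.11, RPL36AL 0.01 and RPS27L -0.14. In HepG2 RPL22L1 rose (0.54) and RPS27L (-0.61), RPL36AL (-0.46), RPL26L1 (-0.44) and RPL7L1 (-0.21) fell.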

How the data were processed

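Per the labels' protocols, poly(A) RNA was read as pairs on the MGISEQ-2000RS. The submitters' processing notes name FastQC, HISAT2, StringTie, DESeq2 and GRCh38; their versions and settings are not given in the sources used here. Deposited was 1 table, which holds the authors' FPKM per gene for 54 libraries. The 48 further columns (16 comparisons of unnamed groups) were not used. Whole reads could be recovered from the FPKM of 36449 of 36451 genes above 0 (99.99%, within 0.01 read). The library sizes behind the authors' FPKM followed median-of-ratios factors (ratio 0.998 to 1.002), not total reads. Values are therefore relative to the median gene of each library.

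Genes reaching 1 FPKM in 3 or more libraries were tested with limma 3.58.1 (R 4.3.3; eBayes with a trend) on log2(FPKM + 1), per line or over both lines, two-sided, with Benjamini-Hochberg adjustment over all genes and calls under 0.05. Fold changes are on the log2(FPKM + 1) scale. Values and figures were made with Python 3.11.15, pandas 2.3.3, numpy 2.4.6 and matplotlib 3.10.9. The members and gene lists were chosen with earlier results of these data known. Named genes are the 3 largest called rises and falls of each comparison, 11 members named throughout, genes at the ends of the level range, and the 2 largest called changes of each other list (for snoRNA hosts and paralogues, any tested member). RPL10A, RPL35A, RPS15 and others given beyond this were chosen after their values were seen. Start sites come from RefSeq, GRCh38.p14. Some members are not reported by name here.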

Additional observations from a re-analysis of the deposited data

Results flagged for a closer look

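By the interaction test in limma, the Torin1 effect against NC differed between the lines. It did so for 30 genes at 3 h and 61 at 6 h, each higher in HCT116. At 3 h the largest called differences were 0.32 for RPL13A, 0.317 for RPS27 and 0.311 for RPL37A on the log2 scale. At 6 h the largest called ones were 1.37 for RPS2, 0.634 for RPS18 and 0.446 for RPS26. RPS2 and RPS18 have copy rows: RPS2 rests on 1 HCT116 library at 170.3 FPKM, and RPS18 lay between 1.852 and 2.432 FPKM in the HCT116 Torin1 6 h libraries. The summed level of the 77 genes with Torin1 at 6 h moved by 17.23% in HCT116 and -3.59% in HepG2, with all 3 libraries above the controls in the first and below them in the second; the difference between these sums was not tested.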

How the results depend on the processing

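In HCT116 with each library left out in turn, Torin1 against NC raised 42 to 48 genes at 3 h and 50 to 59 at 6 h, IL-10 38 to 52 at 3 h, TNF-a 37 to 65 at 3 h, and the difference between the lines at 6 h held for 47 to 60. Wider ranges were 20 to 51 (IL-6 3 h), 10 to 23 (IL-6 6 h), 12 to 51 (IL-10 6 h), 3 to 8 (TNF-a 6 h), 0 to 3 lower (Torin1 3 h against IL-10), 13 to 27 (Torin1 6 h against IL-10) and 1 to 3 (Torin1 6 h against 3 h). In HepG2 they were 7 to 50 lower (IL-6 3 h), 1 to 2 (IL-6 6 h), 9 to 19 (IL-10 3 h), 3 to 4 (IL-10 6 h), 0 to 1 (TNF-a at each hour), 1 to 2 lower (Torin1 3 h), 3 to 6 lower (Torin1 6 h), 21 to 39 lower (Torin1 3 h against IL-10) and 1 to 2 lower (Torin1 6 h against 3 h). The difference between the lines at 3 h held for 17 to 37 genes. Among single genes, 1736 values over 146 results kept their direction and side of the threshold, 329 kept only the direction and 32 reversed.

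With IL-10 of the same hour in place of NC, genes called higher in HCT116 were 0 for IL-6 at 3 h and 0 at 6 h, 4 and 0 for TNF-a (9 lower at 6 h), and 4 and 23 for Torin1. In HepG2 56 genes were lower for IL-6 at 3 h, 1 higher and 3 lower at 6 h, 0 higher for TNF-a at both hours (12 lower at 3 h and 10 at 6 h), and 38 and 23 lower for Torin1. Single genes then turned to slightly below the reference in HCT116. For IL-6 at 3 h these were RPL11 (-0.006), RPL13A (-0.026), RPL35A (-0.058), RPL39 (-0.098), RPL41 (-0.038), RPL5 (-0.034), RPLP0 (-0.043), RPS4X (-0.012) and RPSA (-0.027), and at 6 h RPL35A (-0.007) and RPL5 (-0.009). For TNF-a they were RPL11 (-0.025), RPL39 (-0.164), RPL5 (-0.045), RPS4X (-0.013) and RPSA (-0.023) at 3 h, and RPL21 (-0.118) and RPL35A (-0.152) at 6 h. For Torin1 they were RPL11 (-0.059), RPL41 (-0.043), RPL5 (-0.035), RPS27 (-0.006), RPS27A (-0.05), RPS4X (-0.008) and RPSA (-0.019) at 3 h, and RPL41 (-0.004), RPL5 (-0.002) and RPS27A (-0.005) at 6 h. In HepG2 RPL7 turned with IL-6 at 3 h (-0.201) and 6 h (-0.05) and with TNF-a at 6 h (-0.109). The cause of these reversals was not tested.

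With no filter on low values, counts in HCT116 were 10 (IL-6 6 h), 20 (IL-10 6 h), 2 (TNF-a 6 h), 2 lower (Torin1 3 h against IL-10), 15 (Torin1 6 h against IL-10) and 1 (Torin1 6 h against 3 h). In HepG2 they were 13 lower (IL-6 3 h), 10 (IL-10 3 h), 3 (IL-10 6 h), 0 (TNF-a 6 h), 1 lower (Torin1 3 h), 4 lower (Torin1 6 h) and 21 lower (Torin1 3 h against IL-10), with 17 for the difference between the lines at 3 h. Scaling by total recovered reads gave 13 (IL-6 6 h), 32 (TNF-a 3 h), 2 (TNF-a 6 h), 7 lower (Torin1 3 h against IL-10) and 13 (Torin1 6 h against 3 h) in HCT116. In HepG2 it gave 2 (IL-6 6 h), 10 (IL-10 6 h), 4 lower (Torin1 3 h) and 42 lower (Torin1 6 h against IL-10), and RPS6 between the untreated lines turned from -0.117 to 0.115. Median-of-ratios factors gave 21 (HCT116 TNF-a 6 h), 3 (HepG2 IL-6 6 h) and 1 lower (HepG2 Torin1 3 h).

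Fitting only the libraries compared gave 9 (IL-10 6 h), 21 (TNF-a 6 h), 8 lower (Torin1 3 h against IL-10) and 11 (Torin1 6 h against 3 h) in HCT116. In HepG2 it gave 0 lower (IL-6 3 h), 3 (IL-6 6 h), 11 (IL-10 6 h), 1 higher and 2 lower (TNF-a 6 h), 9 lower (Torin1 3 h), 13 lower (Torin1 6 h), 11 lower (IL-6 3 h against IL-10), 39 lower (Torin1 6 h against IL-10) and 3 lower (Torin1 6 h against 3 h), with 52 for the difference between the lines at 3 h. Both remaining alternatives were chosen after seeing the data. Voom on recovered reads gave 21 (HCT116 TNF-a 6 h), 3 (HepG2 IL-6 6 h), 2 (HepG2 TNF-a 3 h) and 1 lower (HepG2 Torin1 3 h), and leaving out members with a copy or readthrough row gave 1 lower for HepG2 Torin1 3 h. The replicate numbers did not pair the libraries (correlations of same-numbered deviations -0.12 to 0.11). With the replicate block, HepG2 IL-6 6 h had 2 genes, the difference between the lines at 3 h held for 37, and no other count of calls moved by more than 1.5 times. A planned edgeR test on recovered reads was not run, since the deposited unit is FPKM.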
